A study of Nothobranchius furzeri with 42 samples.

Results

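Liver was compared with kidney within individual fish, using every gene of the deposited count table. The members are the liver and kidney libraries of the 7 fish that gave both organs, which is 14 of the 42 libraries of the series. They were chosen by the organ given in the labels and by the prefix of the library titles. The prefix was read as the fish, which no label states in words. Membership was not set by any measured value, but the comparison itself was chosen with earlier results of these data known. All fish were females of the GRZ strain of the African turquoise killifish (Nothobranchius furzeri), a strain that ages within months. They were kept at 28 °C and were 19 weeks old when the organs were taken. From 16 weeks of age, 5 of the 7 fish (N1 to N5) had 10 µM alendronate in their tank water for 3 weeks, and 2 (O2 and O3) had distilled water as placebo. Alendronate is a bisphosphonate, a drug class that binds bone mineral and acts mainly on bone-resorbing cells. Both organs of a fish had the same treatment, so the arm is held constant in each paired difference.

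The liver makes most plasma proteins and lipoprotein particles, handles bile acids and detoxifies, and in egg-laying female fish it also makes yolk precursor proteins. The kidney of bony fishes carries filtering glomeruli and transporting tubules, and between the tubules it holds the main blood-forming tissue of the adult, which has the place that bone marrow has in mammals. A kidney library therefore pools epithelium with developing blood and immune cells. In bulk tissue, fewer cells of a type and less RNA per cell cannot be told apart.

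The count table identifies genes by Ensembl ID alone, and 0 of the 25475 IDs matched the gene table at hand, which was made for the assembly NfurGRZ-RIMD1. The genes are therefore described by their levels and by where else they were expressed, and the markers of hepatocytes, tubules, podocytes and blood cells could not be looked up to check the organ labels. The labels were checked by the libraries alone, which can show whether the libraries part by label but not which organ is which. The first principal component, with 77.2% of the variance of log2 levels, had all 7 liver libraries on one side and all 7 kidney libraries on the other. Across 17288 genes, Pearson's r between libraries ran from 0.911 to 0.964 within liver, from 0.854 to 0.967 within kidney, and from 0.527 to 0.631 between the organs. Total counts ran from 24013699 to 33890627 per liver library and from 20485992 to 31067070 per kidney library.

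Liver RNA was dominated by few genes. The 10 most abundant genes of a liver library took 38.2% of its counts in N1, 52.7% in N2, 51.4% in N3, 43.9% in N4, 54.5% in N5, 56.4% in O2 and 57.3% in O3. In the kidney libraries of the same fish they took 9.83%, 15.7%, 17.8%, 15.7%, 14.4%, 12.9% and 13.4%. The 2 organs did not overlap, and N1 was the lowest fish in both. The mean was 50.6% ± 7.03 in liver and 14.3% ± 2.56 in kidney (SD, n = 7 each), a paired difference of 36.4 ± 6.57 percentage points in the same direction in 7 of 7 fish (exact paired permutation p = 0.0156, two-sided, the smallest that 7 pairs can give; also 0.0156 after adjustment over 4 such tests). The 95% Wilson intervals of these shares reached at most 0.0199 percentage points from the value, and cover counting error only. Within arms the difference averaged 33.5 points in the alendronate fish and 43.6 points in the placebo fish, a gap between arms that was not tested.

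**Figure D1:**
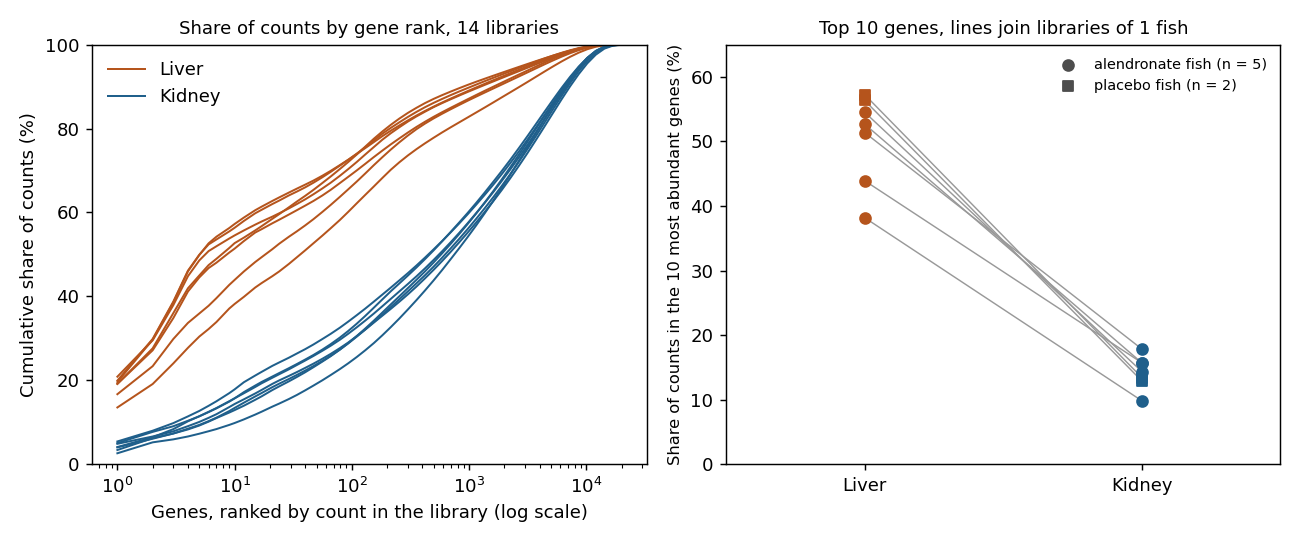
Left, cumulative share of counts (%) against the rank of a gene in its library (log scale), 1 line per library, for the 7 liver and 7 kidney libraries. Right, share of counts (%) in the 10 most abundant genes, with lines joining the libraries of 1 fish and circles for alendronate and squares for placebo fish; the liver points lie between 38.2% and 57.3% and the kidney points between 9.83% and 17.8%.

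In liver, 50% of all counts came from 13.0 ± 11.5 genes (SD, n = 7), from 6 genes in N5, O2 and O3 to 37 in N1. In kidney it took 583.6 ± 108 genes (SD, n = 7), from 450 in N3 to 750 in N1 (exact paired permutation p = 0.0156). A single gene was the most abundant in all 7 liver libraries, where it held from 13.5% to 20.9% of the counts. In kidney 1 gene led 6 libraries and another led that of N1, with 2.62% to 5.44% of counts. Of the 10 leading genes, 7 were common to all 7 livers and 5 to all 7 kidneys. Within a fish, 34 to 46 genes belonged to the 100 leading genes of both organs. Counts were not corrected for gene length, so these ranks are ranks of reads.

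Fewer genes were read in liver. With every library thinned to the smallest total, 18761 ± 525 genes had at least 1 count in liver and 21939 ± 351 in kidney (SD, n = 7 each), a difference of -3178 that had the same sign in 7 of 7 fish (exact paired permutation p = 0.0156). Over the libraries as deposited, the numbers ran from 18582 to 19692 in liver and from 21524 to 22706 in kidney. A gene at a low level is less likely to be read where a few genes take most of the counts, and the part of this in the difference was not tested.

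The dominance of a few liver genes makes the scale of the comparison a choice. TMM, which scales libraries so that most genes keep their level, gave factors from 0.411 to 0.731 in liver and from 1.77 to 2.12 in kidney, a ratio of 3.91 of kidney over liver. Levels below are in CPM, with library sizes corrected by these factors. On this scale 11725 of 17288 genes differed between liver and kidney at an adjusted p of 0.05 (67.8% of those tested; edgeR's quasi-likelihood test with fish as block and Benjamini-Hochberg adjustment). Of these, 5055 were higher in liver (29.2%) and 6670 were higher in kidney (38.6%). Scaled by library totals alone, only 1008 genes were higher in liver and 14940 in kidney, and the median log2 difference over all genes was -2.13 in place of -0.17. Of the 5055 genes called higher in liver, 3540 held a larger share of kidney counts than of liver counts. For these genes the direction holds relative to the bulk of genes and flips when read as a share of counts.

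A difference of more than 2-fold, tested as such with edgeR's glmTreat, was found for 5700 genes (33% of those tested), 2190 higher in liver (12.7%) and 3510 higher in kidney (20.3%). At the other end, 5856 genes had a 95% interval of the fold lying within 2-fold in both directions. Called genes were more numerous among those with many reads. Among the 4322 genes with the lowest mean of both organs (0.166 to 3.14 CPM) 55.2% were called, with 533 higher in liver and 1853 higher in kidney. Among the 4322 with the highest mean (from 24.7 CPM) 78.9% were called, with 2092 higher in liver and 1316 higher in kidney.

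**Figure D2:**
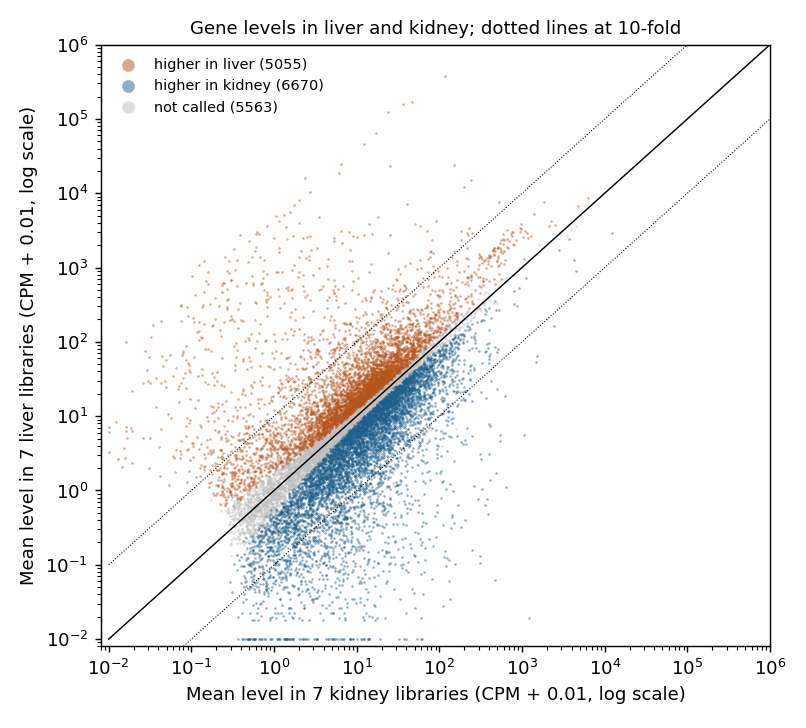
Mean level of each of the 17288 tested genes in the 7 liver libraries (vertical, CPM + 0.01, log scale) against the 7 kidney libraries (horizontal, same scale), coloured by call at an adjusted p of 0.05. The 5055 genes higher in liver reach up to 376760 CPM, while few genes higher in kidney exceed 1000 CPM; dotted lines mark 10-fold.

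Genes without a read in one organ were given a lower bound of their fold, computed against 3 counts over the 7 libraries. Among genes higher in liver, 2104 (41.6%) differed by less than 2-fold, 458 by 10 to 100-fold, 174 by 100 to 1000-fold and 120 (2.37%) by over 1000-fold. Among genes higher in kidney, 2017 (30.2%) differed by less than 2-fold, 1048 by 10 to 100-fold, 208 by 100 to 1000-fold and 28 (0.42%) by over 1000-fold. Without the bounds the last class held 122 genes higher in liver and 57 higher in kidney. Of the called genes, 3 higher in liver had no read in kidney and 95 higher in kidney had no read in liver. Genes with any read in the other organ kept their fitted fold, however few the reads. At most 3 counts in the other organ were found for 16 called genes higher in liver and 213 higher in kidney. The 28 thus mixes lower bounds with fitted folds. The median log2 difference was 1.20 over the genes higher in liver and -1.61 over those higher in kidney, with and without the bounds. At 10-fold or more, 752 genes were higher in liver and 1284 in kidney. Of the 752, 742 were also called higher in liver on library totals alone, and 405 were still at least 10-fold higher. All 1284 kept both their call and a 10-fold difference on that scale, which raises every kidney level.

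**Figure D3:**
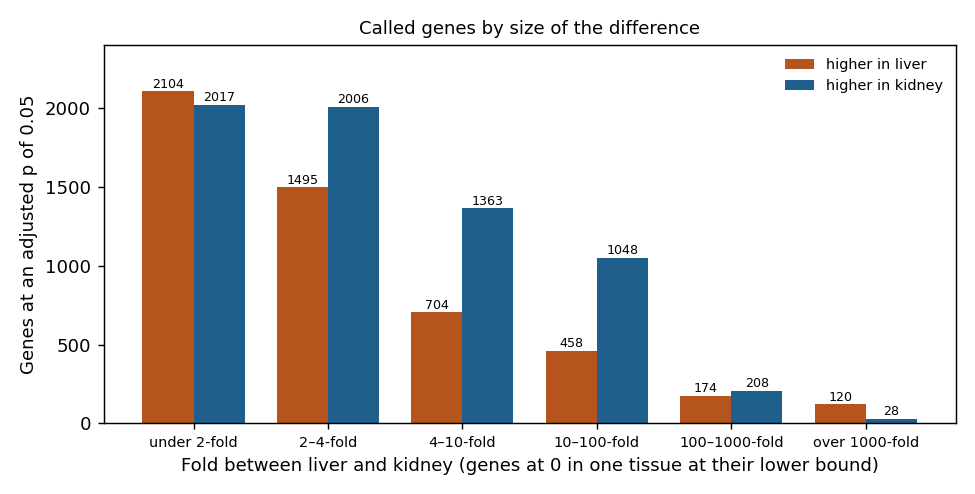
Number of genes at an adjusted p of 0.05 in classes of the fold between liver and kidney, for genes higher in liver and genes higher in kidney; genes with 0 counts in one organ stand at their lower bound. The over 1000-fold class holds 120 genes higher in liver and 28 higher in kidney, or 122 and 57 with fitted folds in place of bounds.

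At 1000 CPM or more on average there were 196 genes in liver and 32 in kidney, 25 of them in both. Of the 196, 99 were at least 10-fold and 74 at least 100-fold higher in liver. Of the 32, 5 were at least 10-fold and 2 at least 100-fold higher in kidney. The 752 genes at least 10-fold higher in liver held 69.4% ± 4.21 of liver counts and 1.33% ± 0.214 of kidney counts (SD, n = 7 each). The 1284 genes at least 10-fold higher in kidney held 0.0855% ± 0.0523 of liver counts and 8.58% ± 1.38 of kidney counts. These shares describe groups chosen from the same libraries and carry no test.

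Genes read in every library of one organ and in none of the other were counted at unlike detection limits. A sum of 3 counts over 7 libraries was worth 0.0297 CPM in liver and 0.00886 CPM in kidney, so a gene could go unread at a higher level in liver. With at least 1 CPM in all 7 kidney libraries and 0 counts in all 7 liver libraries there were 43 genes, averaging 2.01 to 61.9 CPM in kidney. Their levels were at least 67.3-fold to at least 2100-fold higher in kidney than the floor of 3 counts over the 7 livers. In the opposite direction there were 3 genes, averaging 3.24 to 7.12 CPM in liver, at least 363-fold to at least 814-fold higher than the same floor in kidney. A sum of 3 counts or fewer in the other organ was met by 14 genes present in every liver and by 99 present in every kidney. With the liver limit of 0.0297 CPM applied to both organs, an alternative added after seeing the data, these numbers were 27 and 99. A total of 11568 genes reached 1 CPM in all 14 libraries.

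Of the genes called and at least 10-fold apart, the one with the highest level and the one with the smallest p of the others are given for each organ. ENSNFUG00015025346, the gene that led all 7 liver libraries, stood at 185400 CPM in liver of N1, 466430 in N2, 357170 in N3, 295180 in N4, 431500 in N5, 468980 in O2 and 432660 in O3. In kidney it stood at 4.40 CPM in N1, 121 in N2, 116 in N3, 54.6 in N4, 455 in N5, 45.7 in O2 and 20.6 in O3. The organs were far apart in every fish, and the wider spread lay in kidney, where N5 was highest and N1 lowest. The paired log2 difference averaged 12.69 ± 1.82 (SD, n = 7). edgeR fitted a difference of 12.68 (standard error 0.88, adjusted p = 1.154e-06), which is 6570-fold with a 95% interval from 1678 to 25720. It ran from 12.31 to 13.12 when leaving out each fish. In the other organs its mean was 3981 CPM in spleen, 258.7 CPM in heart and 230.8 CPM in muscle, on a scale set over all 42 libraries. Libraries differed widely, from 352 to 14824.5 CPM in spleen, 19.2 to 1171 CPM in heart and 15.3 to 1327 CPM in muscle. The SD was above the mean in each, at 5314, 379 and 415 CPM.

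ENSNFUG00015023172 had the smallest p of all genes higher in liver, with a low level and little spread. It averaged 103.6 ± 23.7 CPM in liver, from 67.2 in N1 to 143 in N2, and 0.436 ± 0.0930 CPM in kidney, from 0.302 in N3 to 0.563 in N2 (SD, n = 7 each). The paired log2 differences lay between 7.31 and 7.94 in all 7 fish. edgeR fitted 7.87 (standard error 0.14, adjusted p = 1.3e-09), which is 234-fold with an interval from 187.9 to 291.4. The next highest organ was heart, at 3.59 CPM.

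ENSNFUG00015001901 had the highest kidney level of the genes at least 10-fold higher there. It stood at 151 CPM in liver of N1, 158 in N2, 176 in N3, 159 in N4, 153 in N5, 179 in O2 and 157 in O3, against 1068 CPM in kidney of N1, 2977 in N2, 3198 in N3, 2232 in N4, 3573 in N5, 2043 in O2 and 1915 in O3. Liver levels hardly varied between fish, and N1 was the lowest kidney. The log2 difference fitted by edgeR was -3.82 (standard error 0.22, adjusted p = 2.464e-07), 14.1-fold higher in kidney. This gene was also expressed in heart, at 696.9 CPM, and in spleen, at 404.7 CPM.

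ENSNFUG00015022304 had the smallest p of the genes higher in kidney. It had 0 counts in 6 liver libraries and 1 count in that of O3, against 1293 counts in kidney of N1, 3388 in N2, 3619 in N3, 1368 in N4, 2570 in N5, 2737 in O2 and 5733 in O3. Its kidney level averaged 60.4 ± 24.99 CPM (SD, n = 7), and its adjusted p in edgeR was 2.611e-09. The ratio of summed scaled counts was 6190 of kidney over liver, with a counting interval from 1110 to 244000. In spleen it averaged 0.0356 CPM, in muscle 0.290 CPM, and in all 9 heart libraries it had no read.

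**Figure D4:**
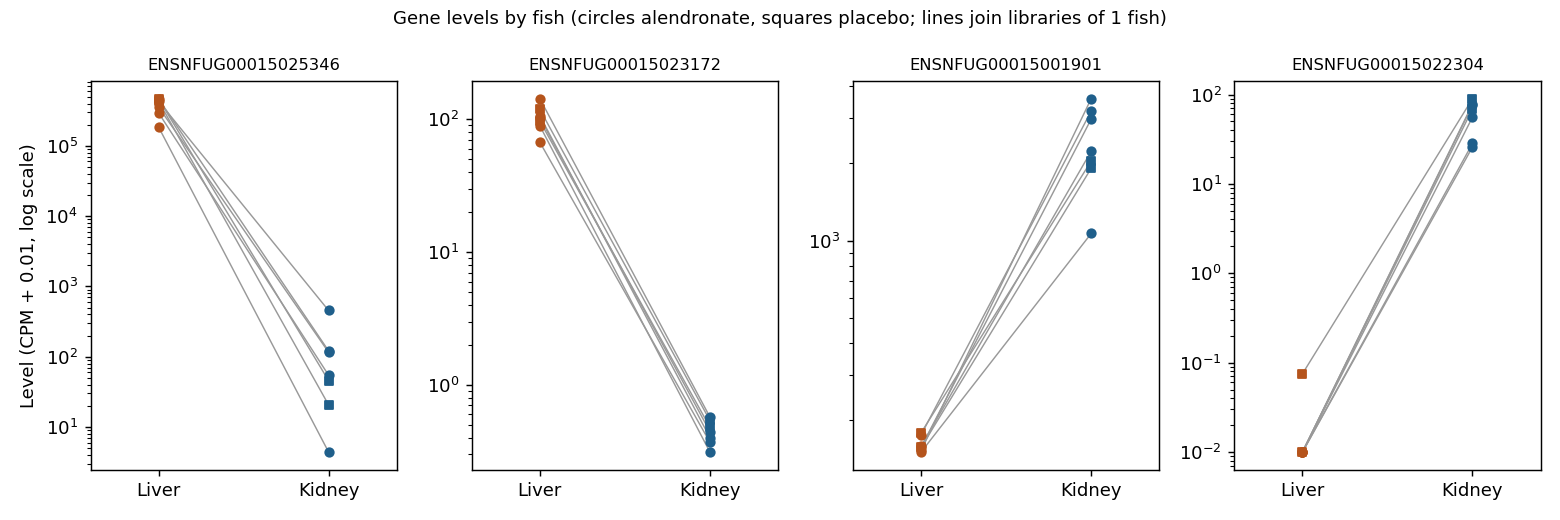
Levels (CPM + 0.01, log scale, each panel with its own range) of 4 genes in liver and kidney of 7 fish, with lines joining libraries of 1 fish and circles for alendronate and squares for placebo fish. In every panel all 7 liver points lie apart from all 7 kidney points; the widest spread is in the first gene's kidney points, from 4.40 to 455 CPM.

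Of all 17288 genes, 4144 were higher in liver in 7 of 7 fish and 5719 were higher in kidney in 7 of 7. Of these, 4081 and 5625 were also called, which is 23.6% and 32.5% of the genes tested. All liver libraries lay above all kidney libraries for 2886 genes (16.7% of those tested) and below them for 3438 genes (19.9%). For scale, 29.2% and 38.6% of tested genes were called in those directions. Single fish had the sign of the call for 95.2% (N1) to 99.0% (O3) of the called genes, a share that is high by construction, since the same fish made the calls. The share of the variance of a gene's log2 levels had a median over 17288 genes of 53.2% for organ, 26.4% for fish and 14.5% for the remainder. The share for fish was not set against the share that noise between libraries alone would give, so it is not a measure of fish effects. Among 9076 genes at 5 CPM or more in both organs, the SD between fish had a median of 0.34 in liver and 0.27 in kidney on the log2 scale. Kidney was the more variable organ for 33.7% of them. At the same CPM a gene had fewer reads in liver, where 3 counts over 7 libraries were worth 0.0297 CPM, against 0.00886 in kidney. The part of this in the spread was not tested.

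Fish N1 stood apart from the other 6 in several of these values. Over the 1284 genes at least 10-fold higher in kidney, its median paired log2 difference was -3.24, against -4.86 to -4.40 in the others. These genes took 0.200% of its liver counts, against 0.0462% to 0.0871% in the other livers, and 6.04% of its kidney counts, against 8.23% to 10.7% in the other kidneys. A share of liver counts also depends on how much the leading genes take. The liver of N1 had the largest TMM factor, 0.731 against 0.411 to 0.566 in the other livers. The part of this in the liver share was not tested. For 591 of the 1284 genes N1 had the smallest difference of the 7 fish, as for 125 of the 752 genes at least 10-fold higher in liver. The same count over all tested genes was not made. Over the 752 genes the median of N1 was 5.48, inside the range of the others (4.98 to 5.76). Without N1, 11590 genes were called, 5052 higher in liver and 6538 higher in kidney. The number at least 10-fold higher in kidney rose from 1284 to 1495 without N1, against 1235 to 1306 when another fish was left out. The number at least 10-fold higher in liver was 765 without N1.

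Traces of liver genes in kidney libraries also differed by fish. Over the 74 genes with at least 1000 CPM in liver and a difference of at least 100-fold, the kidney level as a percentage of the liver level had a median of 0.00969% in N1, 0.0344% in N2, 0.0661% in N3, 0.0455% in N4, 0.144% in N5, 0.0174% in O2 and 0.0184% in O3. N5 had the highest kidney level for 56 of the 74 genes and N1 the lowest for 49, while N1 was the highest for 8. Summed, the 74 genes took 0.166% of kidney counts in N1, 0.118% in N2, 0.172% in N3, 0.0859% in N4, 0.362% in N5, 0.0841% in O2 and 0.0756% in O3. By that share N1 was not the lowest kidney. The highest of the 7 kidney levels of a gene was 24.9 times the lowest at the median, while the highest liver level was 2.43 times the lowest. The source of these reads was not tested.

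**Figure D5:**
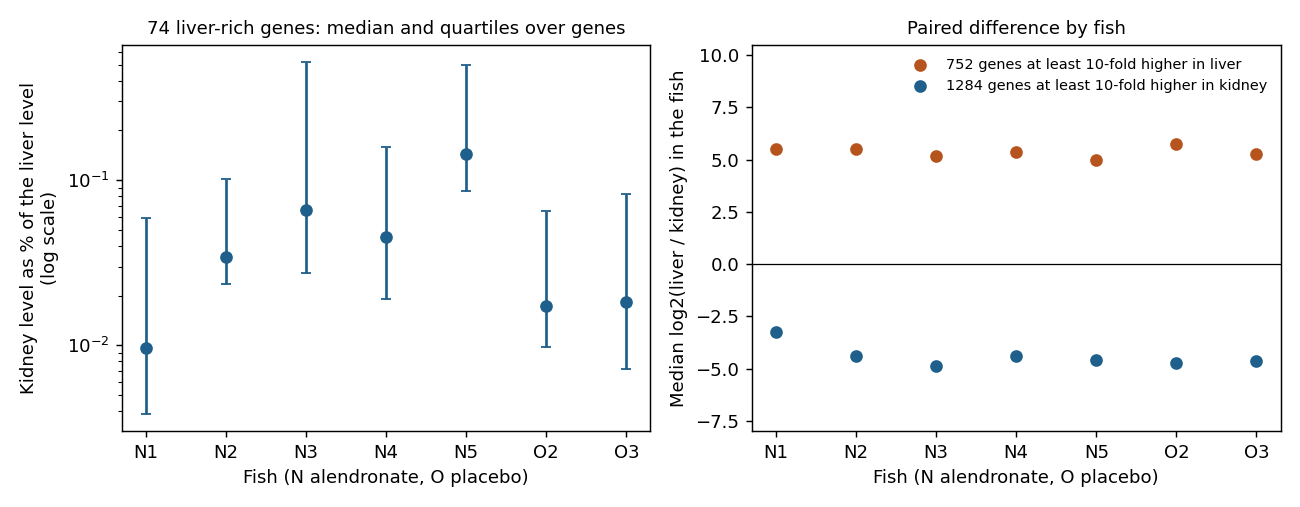
Left, kidney level as a percentage of the liver level (log scale) in each of 7 fish, with points for the median and bars for the quartiles over 74 genes abundant in liver; medians run from 0.00969% in N1 to 0.144% in N5. Right, median log2 ratio of liver over kidney in each fish over the 752 genes at least 10-fold higher in liver and the 1284 at least 10-fold higher in kidney; N1 has the value nearest to 0 of the second group, at -3.24.

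The genes that set the organs apart were then read in spleen, heart and muscle libraries, which the liver and kidney fit did not use. The highest of all 5 organs also draws on the liver and kidney libraries that chose the groups. The shares peaking in liver or kidney are therefore partly set by that choice. Of the 752 genes at least 10-fold higher in liver, 712 (94.7%) had their highest mean of all 5 organs in liver and 26 had it in muscle. Of the 1284 genes at least 10-fold higher in kidney, 921 (71.7%) had it in kidney, 205 (16%) in muscle, 81 in spleen and 77 in heart. Among all 6670 genes higher in kidney the highest organ was kidney for 38.3%, spleen for 27.2%, muscle for 18.9% and heart for 15.5%. Of the 5563 genes not called, the highest organ was muscle for 27.8%, heart for 24.1%, spleen for 22%, liver for 14.9% and kidney for 11.1%. Where that choice raises the share peaking in kidney, it lowers the shares of the other organs, so these are not compared between groups. Among spleen, heart and muscle alone, muscle was highest for 41% of the 1284 genes and 27.5% of the 6670. It was highest for 33.7% of those not called and 33% of all 17288 tested. Heart was highest for 16.5%, 22.2%, 31% and 26.8%, and spleen for 42.4%, 50.3%, 35.3% and 40.3%. Spleen was highest for 66% of the 752 genes and 32.5% of the 5055 higher in liver. The 1284 genes had low medians there, 0.525 CPM in spleen, 0.262 CPM in heart and 0.594 CPM in muscle. Their highest organ was therefore often a rank among low values.

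The 205 genes that peaked in muscle had a median of 0.177 CPM in liver, 5.35 CPM in kidney and 123 CPM in muscle, and 115 of them were at least 10 times as high in muscle as in kidney. Their share of kidney counts was 0.240% in N1, 2.01% in N2, 1.39% in N3, 0.694% in N4, 0.823% in N5, 0.653% in O2 and 0.682% in O3, and their share of liver counts was 0.00306% to 0.0117%. N2 was the highest kidney for 110 of them and N1 the lowest for 149. Of 402 genes at least 10 times as high in muscle as in every other organ, 216 passed the count filter and were tested. Of the 216, 131 were called higher in kidney and 15 higher in liver. Of all 17288 genes tested, these numbers were 6670 (38.6%) and 5055 (29.2%). A gene low in liver could pass through kidney alone, so these numbers are over a selected part of the 402. In muscle libraries the 1284 genes together held 37.0% to 44.9% of counts. Where the kidney reads of the muscle genes came from was not tested. The 921 genes that peaked in kidney had medians of 0.246 CPM in liver, 9.55 CPM in kidney and 0.302 CPM in muscle, and took 5.30% to 8.24% of kidney counts.

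Spleen, which stores and filters blood in fish and holds immune cells, was set against heart in the 8 fish with both. In that comparison 10351 of 16668 genes differed (62.1%), 5311 higher in spleen (31.9%) and 5040 lower (30.2%; edgeR's quasi-likelihood test, adjusted p of 0.05). Of the genes higher in kidney than liver, 5915 of 6670 passed the count filter there, and 2736 (46.3%) were higher and 1373 (23.2%) lower in spleen, with a median log2 difference of 0.32 against 0.02 over all genes. Of the genes higher in liver than kidney, 4672 of 5055 passed, and 1059 (22.7%) were higher and 1769 (37.9%) lower in spleen, with a median of -0.17. These are descriptions of the members that passed, with no test of the list.

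Both groups at least 10-fold apart between liver and kidney were more often higher than lower in spleen. Of the 752 genes at least 10-fold higher in liver, 558 passed the filter, with 315 (56.5%) higher and 110 (19.7%) lower in spleen and a median log2 difference of 1.44. Of the 1284 at least 10-fold higher in kidney, 742 passed, with 384 (51.8%) higher and 238 (32.1%) lower in spleen and a median of 1.04. A gene low in heart could pass through spleen alone, so these percentages are over a selected part of each group. The genes at least 10-fold higher in liver took 1.04% to 19.2% of spleen counts with a median of 4.31%, highest in N1 (19.2%), O2 (9.50%) and N3 (8.20%), and 1.65% to 2.12% of heart counts. Without N1 and N3, 270 of 548 (49.3%) were higher in spleen, and without O2 as well, 261 of 550 (47.5%), against 28.9% and 26.3% of all genes; both omissions were chosen after seeing the data. The reason for the uneven share in spleen was not tested.

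For no gene did the liver and kidney difference differ between the arms past the threshold in edgeR. The interaction of organ with arm, 5 alendronate against 2 placebo fish, was called for 0 of 17288 genes (0% of those tested). The smallest adjusted p was 0.904. Unadjusted, 888 genes had a p under 0.05, against 864.4 that chance gives. limma-voom also called 0, and DESeq2 called 3. The 888 became 1484 without N3 and 506 without O2. Fitted in the alendronate fish alone, 9904 of 17471 genes were called (56.7%). Of the 9823 of these that were also in the fit of all fish, 9514 (96.9%) had the same direction in both placebo fish, as did 58.4% of the genes not called. The mean log2 difference over the 752 genes at least 10-fold higher in liver was 6.09 in alendronate fish and 6.48 in placebo fish, and over the 1284 at least 10-fold higher in kidney it was -4.67 in alendronate fish and -4.96 in placebo fish. With 2 placebo fish, small differences between the arms were not detectable, and larger ones could also be missed. For ENSNFUG00015025346 the fitted interaction was -1.72 on the log2 scale and was not called (adjusted p = 0.904, edgeR's interaction test).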

How the data were processed

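The authors deposited raw counts per Ensembl gene ID in a single table, 1 column per library, without normalization. Tools listed in the submitters' processing notes are STAR 2.7.10b, SAMtools 1.13, Trim Galore 0.6.10, FastQC 0.12.1, MultiQC 1.28, bcl2fastq and CASAVA. Not given in the sources used here: the counting program, its strand setting, the build and the annotation. Therefore overlapping, antisense and near-identical genes are uncertain.

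The 14 libraries were fitted with edgeR 4.0.16 in R 4.3.3 (filterByExpr by organ, TMM, robust quasi-likelihood F test; terms fish and organ), two-sided, with Benjamini-Hochberg adjustment over all tested genes. limma 3.58.1 and DESeq2 1.42.0 were alternatives. Standard errors are the log2 difference divided by the root of F, an approximation. Paired log2 differences use a prior count of 2. Libraries were paired by the prefix of their titles, read as 1 fish, which no label states in words. After removal of arm means, the same-fish correlation of deviations over 9076 genes was 0.277 to 0.622 in 6 fish and -0.0261 in N3, against highest values of 0.117 to 0.317 with another fish. In N3 it was below that with another fish (0.262), and in N5 (0.277 against 0.249) little above. With arm means removed, the deviations of O2 and O3 mirror each other, so their shared value of 0.378 is 1 check. The removal also lowers correlations between different fish of an arm. No source states tanks or batches, so p-values measure the spread between these fish. The comparison, gene groups and lists were chosen with earlier results of these data known. The rule for named genes took, per direction, the highest level and the smallest p among called genes at least 10-fold apart, because no ID matched a symbol. The symbol lists could not be tested.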

Additional observations from a re-analysis of the deposited data

Results flagged for a closer look

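Over 45 sets of 7 values (1 per fish), 10 had a highest or lowest fish far from the others by Dixon's gap test, where chance gives about 1 in 20, or 2.25. Many of these values depend on each other, and 7 of the 10 belong to N1, so they are not separate events.

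In the liver of N1, 37 genes held 50% of the counts (next fish 19). Genes called higher in kidney took 6.52% of its liver counts (next 4.39%), those at least 10-fold higher in kidney 0.200% (next 0.0871%), and genes enriched in spleen 0.0134% (next 0.00609%). These are shares of unscaled counts, and the liver of N1 had the largest TMM factor (0.731, next 0.566). In the kidney of N1, genes called higher in liver took 29.5% of counts, the lowest (next 31.0%), and genes enriched in spleen 0.111%, the highest (next 0.0638%). Its median log2 difference over genes at least 10-fold higher in kidney was -3.24 (next -4.40).

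In the kidney of N5, ENSNFUG00015025346 stood at 455 CPM (next 121), and the 74 genes abundant in liver took 0.362% of counts (next 0.172%). ENSNFUG00015022304 stood at 0.0652 CPM in the liver of O3, from 1 count, and at 0 in the other 6 livers, where any single read would be flagged.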

How the results depend on the processing

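The number of called genes stayed within 1.5 times of 11725 in all 20 alternatives, from 8785 in the placebo fish alone to 15948 on library totals alone, and the directions of shared calls were the same in all of them except library totals. That scale gave 1008 genes higher in liver and 14940 higher in kidney, 405 and 3914 at 10-fold or more, and 13800 past 2-fold (734 higher in liver, 13066 in kidney). Of 10633 genes called on both scales, 7678 had the same direction, so for the others the direction is a matter of scaling. Without the replicate block 11264 genes were called, 11012 of them shared, and the block changed no call of the 4 named genes. Without a filter on low counts 1928 genes were at least 10-fold higher in kidney, from more genes tested. A 1.5-fold limit gave 3298 genes higher in liver, and a 4-fold limit 2667 genes, 1040 higher in liver and 1627 in kidney. DESeq2 called 3 genes for the interaction with arm; the cause was not tested. In the 5 alendronate fish alone the exact p cannot fall below 0.0625, and the differences were 33.5 points for the 10 leading genes, -560.4 genes for 50% of counts and 13.5 points for the leading gene. Leaving out each fish gave 10906 to 11590 called genes. For the 4322 genes with the lowest levels the paired log2 difference had a median SD of 0.997, against 0.368 in the highest. The part of reads per gene in this was not tested.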
